A study of Mus musculus with 18 samples.

Results

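Wild-type TC1 tumours were compared with wild-type MCA205 cells in culture, to find which genes of a tumour a cultured fibrosarcoma line shares and which it lacks. The comparison takes 6 of the 18 RNA-seq libraries of the series, chosen by their labels: 3 of tumour tissue and 3 of MCA205 cells. By their labels the tumours grew from wild-type TC1 cells implanted under the skin of mice and were harvested on day 8. For most genes that separate the lines, however, their values lay nearer to MCA205 cells, as described below. The MCA205 libraries are of wild-type cells of the line. Neither group carries the guide against NAT10 that other libraries of the series carry, and no drug or other treatment is named for either. The labels describe both lines as mouse fibrosarcoma. MCA205 is a line from a fibrosarcoma induced with methylcholanthrene, while TC1 is commonly described as lung epithelial cells transformed with papillomavirus oncogenes. The strain, age and sex of the hosts, and how many mice stand behind a library, are not given in the sources used here. The 3 wild-type libraries of cultured TC1 cells are cited to place the tumours between the lines, and they enter some of the alternative fits.

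A subcutaneous tumour is a mixed tissue. Beside cancer cells it holds host macrophages, lymphocytes, neutrophils, vessels, fibroblasts and blood, whereas a cultured line holds 1 cell type fed by rich medium. Macrophages take up debris and present antigen, cytotoxic lymphocytes kill through granzymes and perforin, and interferons released by these cells switch on antiviral and antigen-presentation genes in their neighbours. In a bulk library, fewer cells of a type and less RNA per cell cannot be told apart.

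The tumour and MCA205 values come from separate deposited tables, so the batch of a table and the group cannot be told apart. Libraries held between 52430163 and 78501790 estimated counts, and no label says that libraries of a group are separate cultures or mice, so p-values measure only how these libraries vary, which can be technical variation. Levels below are FPKM, fragments per length of transcript and depth of library, rescaled over the 6 libraries together. Some libraries stood apart. The summed level of the 22 ribosomal protein genes looked up was 36021 FPKM in tumour 1 against 22406 and 18534 in tumours 2 and 3, and 20482 to 21828 in MCA205 cells. MCA205 library 2 held transcripts of liver, intestine, skeletal muscle and skin at higher levels than MCA205 libraries 1 and 3, described at the end.

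The tumour libraries were first set against both lines. Of the 136 genes that stood at 5 FPKM or more in TC1 cells and at least 10 times higher than in MCA205 cells, the tumours lay nearer to MCA205 cells for 114 and nearer to TC1 cells for 22. Of the 19 genes that marked MCA205 cells in the same way, the tumours lay nearer to MCA205 cells for 19. The first set had a median of 20.03 FPKM in TC1 cells, 0.290 in MCA205 cells and 1.004 in tumours. The second had a median of 0.364 FPKM in TC1 cells, 12.1 in MCA205 cells and 10.5 in tumours. Both sets were chosen after their values were seen. Of the first set 47 are known as liver or intestine genes by name or by the lists used here, many of them of the Mup, Defa and Serpina families, and of the 89 others the tumours lay nearer to MCA205 cells for 68 and nearer to TC1 cells for 21.

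Dlk1, an imprinted gene for a membrane protein of precursor cells, stood at 270, 341 and 342 FPKM in the 3 TC1 cell libraries. In the tumours it stood at 1.26, 0.924 and 1.2 FPKM, and in MCA205 cells, for which the gene is not listed, it was set to 0. Stag3, a cohesin subunit of germ cells, stood at 65.6, 70.4 and 77.6 FPKM in TC1 cells and at 0, 0 and 0.114 in the tumours. Every tumour was more than 10 times below the lowest TC1 cell library for both genes. Hoxc10, a homeobox factor of the hindlimb and lower trunk, stood at 32.6, 22.6 and 24.0 FPKM in the tumours, at 24.2, 24.0 and 27.3 in MCA205 cells, and at 2.00, 0 and 0.0532 in TC1 cells. Amigo2, an adhesion protein, stood at 66.1, 72.2 and 59.8 FPKM in the tumours and at 55.7, 53.1 and 52.0 in MCA205 cells, against 2.99, 1.11 and 0.0701 in TC1 cells. For these genes the tumour values sat beside those of MCA205 cells. Over 13987 genes, Spearman's rho was 0.862 to 0.906 between a tumour and an MCA205 library. It was 0.788 to 0.843 between a tumour and a TC1 cell library, and 0.857 to 0.904 between an MCA205 and a TC1 cell library. The cultures were thus about as alike as tumours and MCA205 cells. These values are a description, since genes are not independent and each group comes from its own table. The labels' protocol says that cells of both lines were implanted, and the tumours keep here the name of their label. What this pattern owes to host cells, to growth in the animal, to the tables or to the label was not tested.

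**Figure D1:**
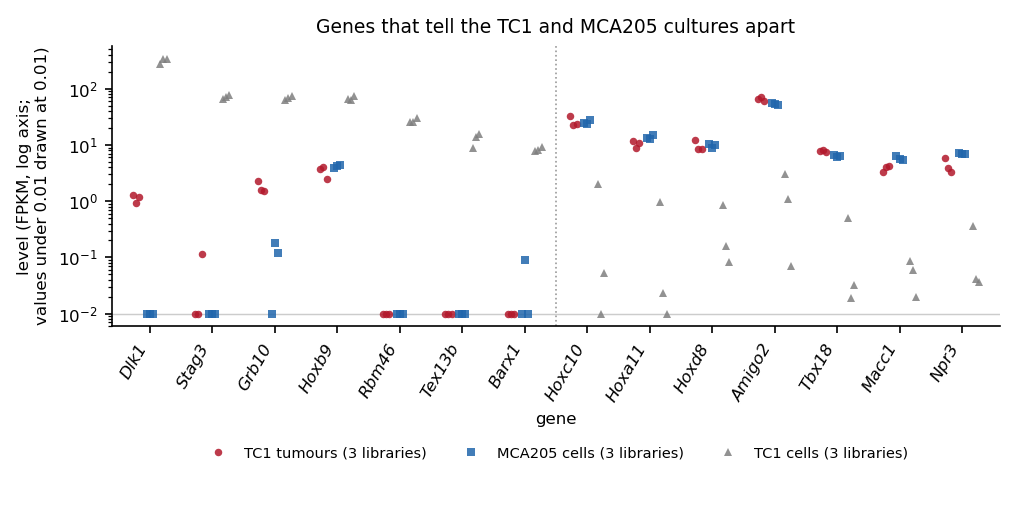
Levels (FPKM, log axis) of 14 genes that separate the lines, in 3 TC1 tumours, 3 MCA205 libraries and 3 TC1 cell libraries, with 1 point for each library; the 7 genes on the left are high in TC1 cells and the 7 on the right in MCA205 cells. Dlk1 stood at 270 to 342 FPKM in TC1 cells and at 0.924 to 1.26 in the tumours, while Hoxc10 stood at 22.6 to 32.6 in the tumours and 24.0 to 27.3 in MCA205 cells.

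Differences were tested with edgeR's quasi-likelihood test on the 18669 genes with enough counts, and calls were made at a p under 0.05 after Benjamini-Hochberg adjustment. All log2 differences are tumour minus MCA205, with the standard error (SE) of the fit, and all adjusted p-values are from this edgeR test over all 18669 genes, with 3 libraries against 3. Of these genes 3604 were higher in the tumours (19.3%) and 2891 were lower (15.5%), together 34.8%. At a difference of at least 2-fold 2037 of the called genes were higher (10.9% of those tested) and 903 lower (4.84%). Every tumour was above every MCA205 library for 5396 genes (28.9%) and below for 4709 (25.2%), together 54.1%. A further reading was taken for likeness: a gene was held within 2-fold where the whole 95% interval of its log2 difference lay inside 1 either way, and 8125 genes were (43.5%). The median log2 difference of all genes tested was 0.06. Without MCA205 library 3 the counts were 2020 higher and 1500 lower, and without MCA205 library 1 there were 1854 lower. Among the called genes 55.5% were higher in the tumours, and 47.3% were with library size as the only scaling. An alternative cited below kept MCA205 library 1 as the sole MCA205 library. That fit also held the TC1 cell libraries, so its spread came from them and from the tumours.

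Most genes of the tumours were also present in MCA205 cells. With presence set at 1 FPKM or more in each of the 3 libraries, 12549 genes were present in the tumours and 12004 in MCA205 cells. The groups shared 11415 genes, which is 90.96% of the tumour genes and 95.09% of the MCA205 genes. Of 11412 shared genes that were tested, 7910 were held within 2-fold, 663 were called and at least 2-fold higher in the tumours, and 440 were called and at least 2-fold lower. MCA205 cells lacked 81 tumour genes, being under 0.1 FPKM in each MCA205 library, and the remaining 1053 lay between these limits. Of the 81, 67 code for proteins and 19 had no count in any MCA205 library, where a gene not listed was set to 0. None of the 81 was present in all 3 TC1 cell libraries, and 32 were under 0.1 FPKM in each of them as well. The edge of the class is soft: Cd69, a lymphocyte activation marker, reached 0.0995 FPKM in its highest MCA205 library and fell inside, and Siglec1, a macrophage lectin, reached 0.102 and fell outside. Without MCA205 library 2 the class held 157 genes.

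The reverse class held 2 genes, 1 of them an unnamed gene model. The other was Slc6a12, a betaine and GABA transporter on chromosome 6 from 121343076 to 121365775 (mm10, plus strand). It stood at 0.0434, 0 and 0.0988 FPKM in the tumours and at 2.05, 1.88 and 3.25 in MCA205 cells, and cultured TC1 cells held 2.28, 2.16 and 2.87. Both cultures were above every tumour. The log2 difference was −5.32 (adjusted p = 0.0124), and without MCA205 library 3 the adjusted p was 0.0512. For this gene 1 transcript is listed for the tumours and 6 are for MCA205 cells, and what that has to do with the difference was not tested.

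**Figure D2:**
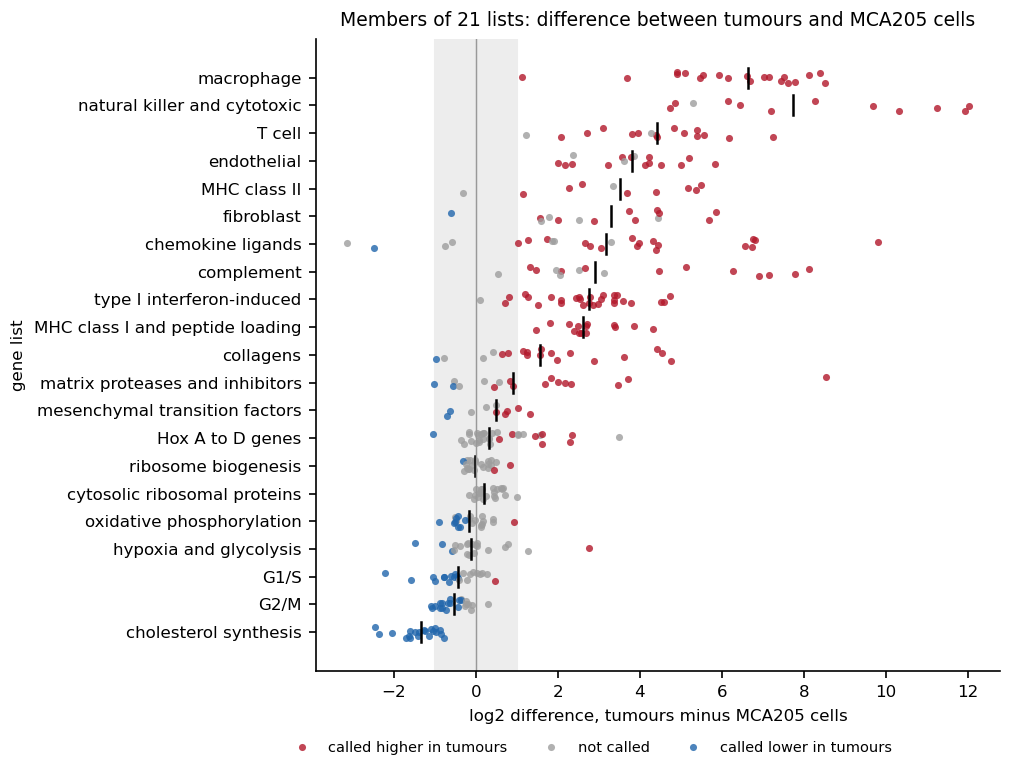
Log2 differences (tumour minus MCA205) of the members of 21 gene lists, with 1 point for each tested gene and a bar at the list's median. Cell type lists such as macrophage (median 6.65) and natural killer (7.73) lie far above 0, cholesterol synthesis lies wholly below 0 (median −1.33), and ribosome biogenesis lies around 0 (median −0.03).

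The genes held at like levels included the most abundant ones of a growing cell. The mitochondrial gene mt-Co1, of a cytochrome oxidase subunit, stood at 8738, 8066 and 6985 FPKM in the tumours and at 6629, 8105 and 7898 in MCA205 cells. Eef1a1, which brings transfer RNA to the ribosome, stood at 7007, 6177 and 4740 FPKM against 5666, 5417 and 5742. In both cases the groups overlapped, and the log2 differences were 0.07 and 0.16. The 8 other abundant genes named for being held were mt-Atp6, mt-Atp8, mt-Cytb, mt-Nd1, Rps2, Rplp0, Rpl8 and Hsp90ab1, with log2 differences from −0.02 to 0.17.

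Ribosome biogenesis genes were mostly held. Of the 22 members 20 were held within 2-fold, 2 were called higher and 1 lower, and the median log2 difference was −0.03. Without MCA205 library 1, 2 or 3 in turn 0 were called, and without tumour 1 there were 4 called lower. Nat10, the RNA cytidine acetyltransferase that gives the series its subject, stood at 19, 17.6 and 16.2 FPKM in the tumours and at 15.2, 13.5 and 15.1 in MCA205 cells. The groups did not overlap, the log2 difference was 0.30, and the gene was held within 2-fold and not called (adjusted p = 0.0658). Adjusted p-values fell to 0.0314 without tumour 3, 0.0369 in a fit with 9 libraries and 0.0439 with upper-quartile scaling. Fbl, the methyltransferase of the nucleolus, stood at 218, 137 and 118 FPKM in the tumours and at 119, 120 and 127 in MCA205 cells, with tumour 1 above the rest. None of the 22 ribosomal protein genes was called, 12 were held, and their median was 0.20. Without tumour 1, in which they were highest, 3 were called higher and 4 lower, and without tumour 3 there were 3 called higher.

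Positional and mesenchymal identity genes were present in both groups. Hox genes encode the factors that record a cell's position along the body axis, and of 32 tested members of 37, 17 were held, 7 were called higher and 1 lower, with a median of 0.32. Of all genes tested 43.5% were held and 19.3% called higher, so these shares lay near the background. With a replicate block these calls fell to 3 higher and 0 lower, and without a single library they ranged from 3 to 5 higher and from 0 to 3 lower. Hoxa9 stood at 21.6, 16.2 and 15.1 FPKM in the tumours and at 19.2, 21.6 and 21.4 in MCA205 cells, overlapping values with a log2 difference of −0.11. Hoxa11 stood at 11.7, 8.83 and 11 FPKM against 13.4, 12.8 and 15.1, lower in every tumour but held (log2 difference −0.36, adjusted p = 0.077). Of 10 mesenchymal transition factors and effectors 6 were held, 5 were called higher and 2 lower, the median being 0.49, and the groups did not overlap for 9 of the 10, against 54.1% of all genes tested. Cdh2, the N-cadherin of mesenchymal cells, stood at 17.4, 19.8 and 15.9 FPKM in the tumours and at 21, 19.1 and 18.0 in MCA205 cells. Its values overlapped and the log2 difference was −0.13. Vim, the mesenchymal filament vimentin, was higher in the tumours by 1.31 on the log2 scale (adjusted p = 0.00292). Prrx1 (0.71) and Zeb2 (0.49), factors of mesenchymal fate, were called higher while held within 2-fold, but Prrx1 was not called with MCA205 library 1 as the sole MCA205 library (adjusted p = 0.0597), nor Zeb2 without MCA205 library 3 (adjusted p = 0.0503). Without MCA205 library 3 there were 3 called higher and 1 lower, and without tumour 2 there was 1 called lower. With MCA205 library 2 and tumour 3 left out together 2 members were called higher and 0 lower, and 0 were called at a minimum change of 2-fold.

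Immune genes led the differences towards the tumours. Granzymes are serine proteases that cytotoxic lymphocytes release into their targets. Gzmc, Gzmd and Gzmf, which lie close together on chromosome 14, are not listed for MCA205 cells and were set to 0 there. A gene not listed cannot be told from a gene with no reads. Gzmc, from 56231441 to 56234656 on the minus strand (mm10), stood at 14, 11.1 and 51.1 FPKM in the tumours. Gzmd, from 56129556 to 56132608, stood at 9.95, 4.24 and 23.9 FPKM. Gzmf, from 56205263 to 56211417, stood at 8.26, 3.54 and 17.5 FPKM. Tumour 3 was the highest for each of these genes and every tumour was above every MCA205 library. Set against a floor of 3 counts over the 3 MCA205 libraries, Gzmc was at least 1350-fold higher (adjusted p = 0.00494), Gzmd at least 731-fold (0.00505) and Gzmf at least 535-fold (0.00444). With limma-voom the adjusted p was 0.075 for Gzmc and 0.0587 for Gzmd. Gzmb, of the same cluster, from 56258838 to 56262260, was not at 0 in MCA205 cells: it stood at 11.3, 18.4 and 39.3 FPKM in the tumours and at 0, 0.676 and 0.103 in MCA205 cells (log2 difference 6.44 ± 1.24 SE, adjusted p = 0.01, or 0.0622 with limma-voom). These proteases are close relatives, and the split of reads between them rests on the authors' counting.

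The wider natural killer and cytotoxic list had 11 of 12 members called higher and a median log2 difference of 7.73, or 6.53 with the 6 members at 0 in MCA205 cells set at their bounds. Klrk1, the activating receptor NKG2D, stood at 2.87, 4.27 and 7.35 FPKM in the tumours and at 0 in MCA205 cells, at least 494-fold higher (adjusted p = 0.00267). Prf1, the pore former perforin, stood at 2.30, 1.76 and 5.46 FPKM against 0, at least 463-fold higher (adjusted p = 0.00274). Klrd1, the CD94 receptor chain, stood at 4.31, 2.86 and 9.90 FPKM against 0, at least 292-fold higher (adjusted p = 0.0037). These genes were detected in every tumour and in no MCA205 library. Ifng, the gene of interferon gamma, stood at 2.73, 2.55 and 3.4 FPKM in the tumours and at 0, 0.0519 and 0 in MCA205 cells (log2 difference 7.19 ± 1.08 SE, adjusted p = 0.00444). Gzma, at 17.0, 9.60 and 35.0 FPKM against 0, 1.53 and 0, was the member not called (adjusted p = 0.0519), and without MCA205 library 2 its adjusted p was 0.00699. Of the members 4 have no row in the MCA205 table, Klrk1 and Klrd1 among them, and were set to 0 there. Among genes with rows in both tables the called members numbered 7.

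T cell genes were low but called. Of 16 members 14 were called higher and the median was 4.41, and 9 were called without tumour 3, 8 with MCA205 library 1 as the sole MCA205 library and 8 at a minimum change of 2-fold. Cd2, an adhesion receptor of T cells, stood at 3.38, 1.81 and 4.31 FPKM in the tumours and at 0, 0.0595 and 0 in MCA205 cells (log2 difference 7.25 ± 1.14 SE, adjusted p = 0.00514). Foxp3, the regulatory T cell factor, stood at 0.277, 0.116 and 0.305 FPKM against 0.017, 0.0163 and 0.0145 (3.82 ± 0.57 SE, adjusted p = 0.00437). Each tumour was above each MCA205 library for both genes. Cd8a, the coreceptor of cytotoxic T cells, stood at 1.02, 1.06 and 2.31 FPKM against 0, 0.0801 and 0 (adjusted p = 0.0284). The Cd8a call was lost without tumour 2 (adjusted p = 0.0656), tumour 3 (0.0786) or MCA205 library 3 (0.0742). Cd3g, a chain of the T cell receptor complex, reached 0.505 FPKM in MCA205 library 2 and was not called (adjusted p = 0.0883).

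Macrophage genes had the highest summed level of the 18 cell type lists in each tumour. All 20 members were called higher, with log2 differences from 1.12 to 8.51 and a median of 6.65, and 17 to 20 were called under the alternatives tried. Their summed level was 3411, 2228 and 3081 FPKM in the tumours and 45.7, 96.9 and 85.7 in MCA205 cells. Lyz2, the lysozyme of myeloid cells, stood at 648, 618 and 579 FPKM against 1.17, 9.03 and 7.83 (log2 difference 6.68 ± 0.78 SE, adjusted p = 0.00201). Mrc1, the mannose receptor CD206, stood at 42.6, 25.7 and 27.5 FPKM against 0.208, 0.335 and 0.234 (7.03 ± 0.31 SE, adjusted p = 0.000179). Arg1, the arginase of alternatively activated macrophages, stood at 354, 175 and 157 FPKM against 0.265, 0.855 and 0.894 (8.51 ± 0.67 SE, adjusted p = 0.000665). No MCA205 library came near a tumour for these 3 genes, and tumour 1 was the highest for each. Trem2, a lipid-sensing receptor, stood at 33.3, 17.9 and 24.4 FPKM against 0.497, 0.657 and 0.781 (4.90 ± 0.25 SE, adjusted p = 0.000257). Csf1r, the receptor on which macrophages depend, stood at 21.4, 25.0 and 44.1 FPKM against 0.205, 1.59 and 1.47 (4.91 ± 0.74 SE, adjusted p = 0.00452). For Csf1r tumour 3 was the highest and MCA205 library 1 the lowest.

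The promoters of macrophage genes were read for the core of PU.1 sites, the myeloid ETS factor, because every member was called. The letters GAGGAAG were searched on both strands of the 250 bases before each RefSeq start (GRCm38.p6). Of the 13 macrophage genes with a promoter entry 5 held them, against 13.4% of all tested genes with an entry. The 5 were C1qc, Fcgr1, Mrc1, Pf4 and Trem2. The stretches of Pf4, which encodes a chemokine of platelets and macrophages, and of Trem2 are shown because they are the shortest and 1 whose gene is described above. The match, in capitals, lies on the strand opposite to the printed one. Pf4 covers chr5:90772396-90772434 on the plus strand and Trem2 chr17:48346330-48346396 on the plus strand. A match is a description of letters and not a bound site.
Pf4: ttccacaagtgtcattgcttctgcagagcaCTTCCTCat
Trem2: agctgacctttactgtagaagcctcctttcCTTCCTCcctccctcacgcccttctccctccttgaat

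Antigen presentation by MHC class II, which professional antigen-presenting cells use for helper T cells, had 8 of 10 members called higher and a median of 3.52. Cd74, the invariant chain, stood at 235, 161 and 367 FPKM in the tumours and at 12.1, 28.7 and 17.8 in MCA205 cells (log2 difference 3.69 ± 0.44 SE, adjusted p = 0.00211). H2-DMa, which loads peptides onto class II, stood at 19.4, 20.6 and 37.3 FPKM against 1.5, 1.52 and 1.45 (4.39 ± 0.25 SE, adjusted p = 0.000311). H2-Aa, a class II chain, stood at 94.2, 65.4 and 166 FPKM against 0.217, 4.88 and 2.16 (5.48 ± 0.97 SE, adjusted p = 0.00772). The groups were apart for all 3 genes, with tumour 3 the highest. MCA205 library 2 was the highest of its group for Cd74 and H2-Aa.

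Dendritic cell genes gave fewer and weaker calls. Of 8 tested members of 10, 5 were called higher, against 19.3% of all genes tested, and 2 were held, with a median of 3.63. The count called fell to 2 with a replicate block and to 3 without MCA205 library 3. It was 1 with MCA205 library 2 and tumour 3 left out together. Ccr7, which guides dendritic cells and T cells to lymph nodes, stood at 1.90, 1.18 and 2.05 FPKM in the tumours and at 0.0247, 0.127 and 0.0563 in MCA205 cells (adjusted p = 0.00375, and 0.0741 with MCA205 library 1 as the sole MCA205 library). Fscn1, the actin bundler fascin, is not specific to dendritic cells here: it stood at 162, 119 and 112 FPKM in the tumours and at 124, 126 and 137 in MCA205 cells, with overlapping values and a log2 difference of 0.03.

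Neutrophil genes were uneven among the tumours. Their sum was 206, 31.1 and 46.6 FPKM in the tumours and 4.63, 15.3 and 10.7 in MCA205 cells, so that every tumour lay above every MCA205 library. Of 11 tested members of 12, 4 were called higher with a median of 3.23, against 19.3% called higher of all genes tested. Without tumour 2 there were 7 called. S100a9, a calcium-binding protein abundant in neutrophils, stood at 64.3, 1.58 and 10.9 FPKM in the tumours and at 0.701, 2.17 and 2.65 in MCA205 cells. Ngp, a neutrophil granule protein, stood at 37.4, 0 and 3.26 FPKM against 0, 0.449 and 0.258. Tumour 1 was far above the others for both, tumour 2 fell among the MCA205 values, and neither gene was called (adjusted p = 0.0665 and 0.105). Without tumour 2 the adjusted p-values were 0.0271 for S100a9 and 0.0423 for Ngp. Csf3r, the receptor for granulocyte colony-stimulating factor, stood at 4.79, 2.17 and 4.80 FPKM against 0.0469, 0.171 and 0.064 and was called (log2 difference 5.25, adjusted p = 0.00239).

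B and plasma cell genes were mixed. Of 9 tested members of 10, 3 were called higher, with a median of 1.04, while 19.3% of all genes tested were called higher. Cd79a, a chain of the B cell receptor, stood at 2.95, 2.14 and 3.08 FPKM in the tumours and at 0.515, 0.710 and 0.459 in MCA205 cells (log2 difference 2.28, adjusted p = 0.00339). Igkc, an antibody light chain, stood at 2.67, 24.9 and 24.2 FPKM against 0.889, 46.0 and 5.66, so that the highest value of all was in MCA205 library 2. Ms4a1, the B cell surface protein CD20, was under 0.1 FPKM in each tumour. Without MCA205 library 3 the count was 1, Cd79a. Of 5 tested mast cell genes of 8, 2 were called higher with a median of 3.26, and 1 was without tumour 1, tumour 3 or MCA205 library 1.

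**Figure D3:**
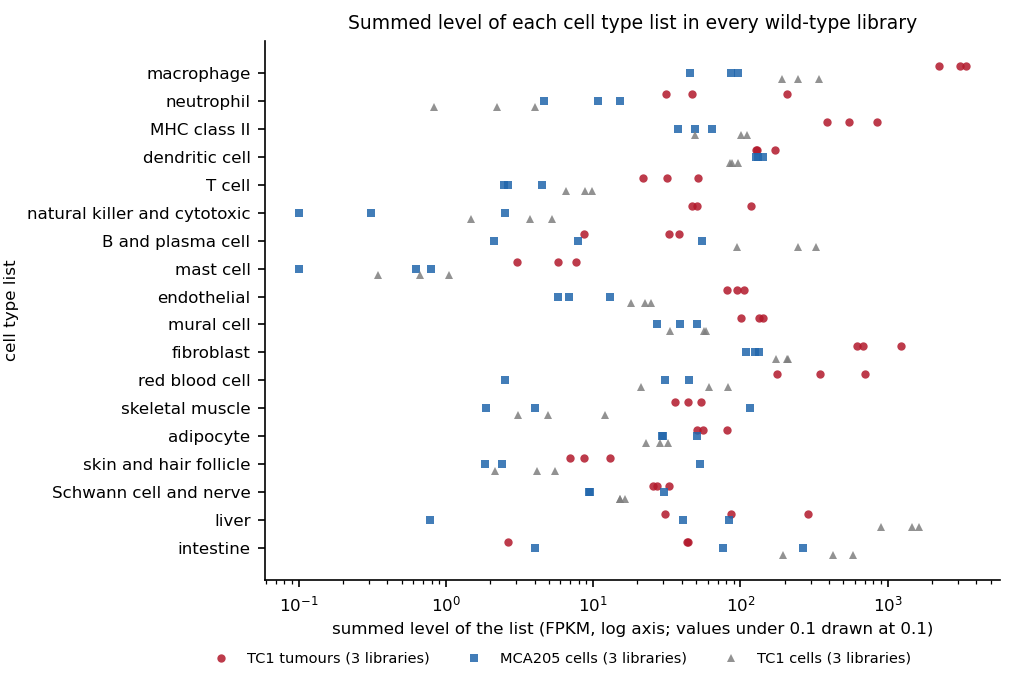
Summed level (FPKM, log axis) of each cell type list in each library of the TC1 tumours, MCA205 cells and TC1 cells. Macrophage genes sum to 2228 to 3411 FPKM in the tumours and 45.7 to 96.9 in MCA205 cells, and liver genes sum to more in every TC1 cell library (902 to 1636) than in any other. Intestine genes sum to 264 FPKM in MCA205 library 2, above every tumour and above TC1 cell library 3 (193).

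Genes of the vessel lining were higher in the tumours. Of 16 endothelial genes 13 were called higher with a median of 3.82, and their sum was 94.8, 80.6 and 105 FPKM in the tumours against 5.75, 13.1 and 6.85 in MCA205 cells. Pecam1, the junction protein CD31, stood at 19.1, 14.3 and 17.2 FPKM against 0.130, 1.13 and 0.318 (log2 difference 5.01 ± 0.75 SE, adjusted p = 0.00435). Plvap, which forms the diaphragms of fenestrated vessels, stood at 17.1, 13.2 and 22.2 FPKM against 0.476, 1.14 and 0.673 (4.52 ± 0.39 SE, adjusted p = 0.000872). Egfl7, a secreted vessel factor, stood at 18.9, 14.4 and 17.3 FPKM against 3.83, 5.53 and 3.98 (2.01 ± 0.22 SE, adjusted p = 0.00161). All tumours were above all MCA205 libraries, and MCA205 library 2 was the highest of its group for each of the 3.

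Mural cell genes, of the pericytes and smooth muscle around vessels, gave few calls. Of 12 members 3 were called higher, near the 19.3% of all genes, with a median of 1.54. Every tumour was above every MCA205 library for 7 members, against 28.9% of all genes tested. The count called was 5 without MCA205 library 1, 8 with MCA205 library 1 as the sole MCA205 library and 1 at a minimum change of 2-fold. Mcam, the adhesion molecule CD146, stood at 20.9, 22.8 and 22.2 FPKM in the tumours and at 3.28, 3.34 and 3.67 in MCA205 cells (log2 difference 2.68 ± 0.09 SE, adjusted p = 0.000164). Pdgfrb, the platelet-derived growth factor receptor of mural cells and fibroblasts, stood at 10.04, 13.1 and 20.5 FPKM against 10.1, 10.4 and 11.2. The groups were wide apart for Mcam and overlapped for Pdgfrb (log2 difference 0.46, adjusted p = 0.203).

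Fibroblast genes were higher in part, in a line that is itself mesenchymal. Of 14 members 9 were called higher and 1 lower, with a median of 3.30, and 5 were called higher at a minimum change of 2-fold. Postn, the matrix protein periostin, stood at 42.4, 40.2 and 70.0 FPKM in the tumours and at 0.138, 1.77 and 1.2 in MCA205 cells (log2 difference 5.68 ± 0.79 SE, adjusted p = 0.00351). Col3a1, a fibrillar collagen, stood at 213, 256 and 637 FPKM against 46.1, 49.7 and 56.1 (2.87 ± 0.45 SE, adjusted p = 0.00499). MCA205 cells held a clear level of Col3a1 and almost none of Postn, and tumour 3 was the highest for both. The fibroblast gene called lower, Fbln1, was not called without any 1 of the MCA205 libraries.

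Red blood cell genes were higher in all tumours, on uneven values. The 5 tested members of 7 were called, with a median of 3.76, and 0 were called without MCA205 library 3, 2 without tumour 1, 2 without tumour 2, 3 without MCA205 library 2, and 2 with a replicate block. Hbb-bs, a beta globin, stood at 211, 142 and 67.5 FPKM in the tumours and at 0.662, 11.3 and 7.29 in MCA205 cells (log2 difference 4.46, adjusted p = 0.0147). Globin transcripts were thus present in MCA205 libraries 2 and 3, and without library 3 the adjusted p was 0.0635.

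Skeletal muscle, adipocyte and skin genes gave no call in edgeR's fit of all 6 libraries, and nerve genes gave 2. With edgeR 0 of the 13 tested muscle genes of 18, 0 of the 6 tested adipocyte genes of 10 and 0 of the 7 tested skin genes of 12 were called, with medians of −0.29, 0.14 and −0.91. Without MCA205 library 2 these counts were 8, 1 and 1, and 1 adipocyte gene was called without tumour 3. With limma-voom on the 6 libraries the adipocyte gene Fabp4 was called (log2 difference 2.33, adjusted p = 0.031). Of 7 tested Schwann cell genes of 9, 4 had groups that did not overlap, against 54.1% of all genes tested. Of these 4, 2 were higher and 2 lower in the tumours, and the median of the list was −0.84. The 2 called, both higher, were the myelin genes Pmp22 (log2 difference 1.93, adjusted p = 0.00243) and Cnp (1.64, adjusted p = 0.00216). Of all genes tested 19.3% were called higher. Acta1, skeletal actin, stood at 12.8, 9.54 and 10.4 FPKM in the tumours and at 0.320, 25.6 and 1.17 in MCA205 cells. Without MCA205 library 2, which stood above every tumour, its log2 difference was 3.87 (adjusted p = 0.0117). Krt14, a keratin of basal skin cells, stood at 1.80, 6.25 and 3.57 FPKM in the tumours and at 0, 21.6 and 0 in MCA205 cells, and its log2 difference turned from −0.91 to 11.67 without the same library (adjusted p = 0.00778).

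Type I interferon-induced genes were higher in the tumours almost without exception. Of 28 members 27 were called higher and 1 was held, with differences from 0.09 to 4.74 and a median of 2.76, and 23 were called at a minimum change of 2-fold and 6 with MCA205 library 1 as the sole MCA205 library. MCA205 cells did not lack these genes: their sum was 683, 635 and 643 FPKM there and 2661, 2317 and 3512 in the tumours. The fit with MCA205 library 1 alone also held the TC1 cell libraries, in which the sum was 828, 209 and 229 FPKM. Ifit3, which binds foreign RNA and slows its translation, stood at 127, 130 and 204 FPKM in the tumours and at 7.04, 7.28 and 5.83 in MCA205 cells (log2 difference 4.51 ± 0.24 SE, adjusted p = 0.000283). Ifit1, its relative next to it on chromosome 19, stood at 63.4, 62.7 and 89.2 FPKM against 6.05, 6.81 and 4.92 (3.6 ± 0.20 SE, adjusted p = 0.000299, or 0.0692 with MCA205 library 1 as the sole MCA205 library). Every tumour stood far above every MCA205 library, with tumour 3 the highest.

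The promoters of the list were read for the interferon-stimulated response element, the site of the STAT and IRF factors that interferon activates. The letters GAAA, any 2 bases and GAAA again were searched on both strands, overlaps allowed, in the 250 bases before each RefSeq start. Of the 20 list genes with a promoter entry 9 held them, against 3.37% of 12295 tested genes and 2.98% of 32851 start sites. The 9 were Bst2, Cxcl10, Ifit1, Ifit3, Isg15, Oas1a, Oas3, Rsad2 and Stat2. Of these stretches 5 are shown because their genes are described here, each on its gene's own strand with the matches in capitals. In Ifit3, Ifit1 and Rsad2 the match lies on the other strand. The positions in GRCm38.p6 are chr19:34583343-34583446 on the plus strand for Ifit3, chr19:34640755-34640843 plus for Ifit1, chr12:26456533-26456602 minus for Rsad2, chr4:156200845-156200926 minus for Isg15 and chr5:120907526-120907575 minus for Oas1a. All are upstream of the start, and that of Oas1a ends at the base before it.
Ifit3: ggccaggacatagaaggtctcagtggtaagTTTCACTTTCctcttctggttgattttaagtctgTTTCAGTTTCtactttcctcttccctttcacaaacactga
Ifit1: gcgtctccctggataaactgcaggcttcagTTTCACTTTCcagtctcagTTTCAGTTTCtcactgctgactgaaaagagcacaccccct
Rsad2: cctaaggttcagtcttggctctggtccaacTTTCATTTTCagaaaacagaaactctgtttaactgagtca
Isg15: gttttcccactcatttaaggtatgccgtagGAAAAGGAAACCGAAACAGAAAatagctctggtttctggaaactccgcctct
Oas1a: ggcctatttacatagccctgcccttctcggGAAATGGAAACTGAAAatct

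Among these genes the levels differed widely. Isg15, a ubiquitin-like modifier with 3 overlapping matches, stood at 221, 149 and 239 FPKM in the tumours and at 37.8, 31.6 and 34.5 in MCA205 cells (log2 difference 2.55 ± 0.19 SE, adjusted p = 0.000603). Oas1a, which makes the messenger that activates RNase L, stood at 50.2, 53.3 and 83.6 FPKM against 15.8, 14.9 and 14.1 (2.06 ± 0.21 SE, adjusted p = 0.0013). Rsad2, the antiviral enzyme viperin, stood at 23.4, 20.9 and 28.3 FPKM against 2.36, 2.63 and 2.09 (3.36 ± 0.15 SE, adjusted p = 0.000185, or 0.0557 in the fit with 9 libraries). The tumours were above MCA205 cells in every library. With MCA205 library 1 as the sole MCA205 library the adjusted p was 0.154 for Isg15 and 0.154 for Oas1a.

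Effectors and sensors of the response were also compared. Mx1, an antiviral GTPase, stood at 10.2, 13.5 and 27.5 FPKM in the tumours and at 0.644, 0.859 and 0.609 in MCA205 cells (log2 difference 4.74 ± 0.48 SE, adjusted p = 0.00133). Eif2ak2, the RNA-activated kinase PKR, was the member held, at 14.4, 19.8 and 26.2 FPKM against 21.9, 18.9 and 18.3. Its values overlapped and the log2 difference was 0.09.

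Class I antigen presentation was higher throughout. These genes display peptides from inside the cell to cytotoxic T cells, and all 14 members were called higher, with differences from 1.47 to 4.32 and a median of 2.62. The 14 were called under each alternative tried but a minimum change of 2-fold, which called 13. H2-K1, a classical class I heavy chain, stood at 2480, 1849 and 2861 FPKM in the tumours and at 454, 461 and 483 in MCA205 cells (log2 difference 2.40 ± 0.19 SE, adjusted p = 0.00064). B2m, the shared light chain, stood at 3963, 3349 and 4267 FPKM against 1068, 1115 and 1121 (1.81 ± 0.14 SE, adjusted p = 0.000665). Psmb9, a subunit of the immunoproteasome, stood at 69.2, 49.7 and 66.8 FPKM against 4.09, 4.64 and 4.59 (3.85 ± 0.15 SE, adjusted p = 0.000164). The groups were apart in all 3, and the difference was smallest for the abundant B2m. Tap1, a part of the peptide pump into the endoplasmic reticulum, stood at 110, 117 and 156 FPKM against 21.2, 20.2 and 19.8 (2.56 ± 0.15 SE, adjusted p = 0.000336). Nlrc5, the transactivator of class I genes, had the smallest difference of the list, at 18.5, 24.7 and 26.6 FPKM against 7.33, 7.49 and 7.18 (1.47 ± 0.19 SE, adjusted p = 0.0027). In cultured TC1 cells H2-K1 stood at 4.70, 2.67 and 2.15 FPKM, below every MCA205 library, and B2m at 2194, 1781 and 1953, above every MCA205 library. H2-K1 has close relatives in the class I family, and the split between them rests on the authors' counting.

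**Figure D4:**
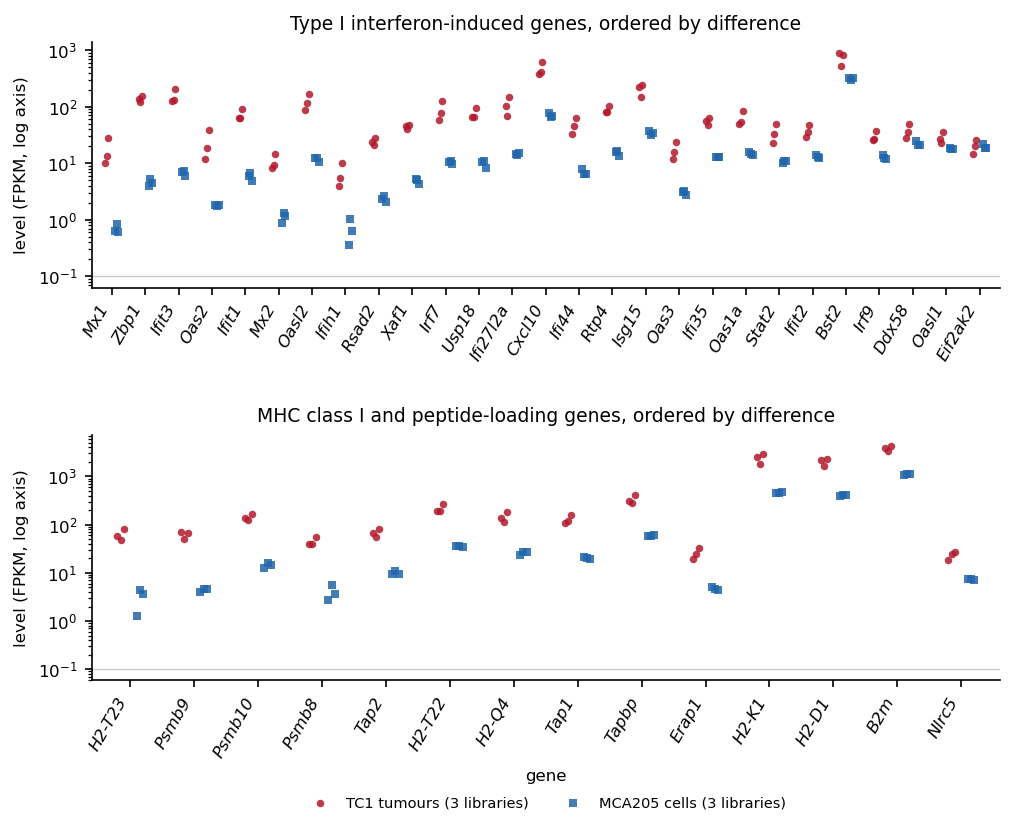
Levels (FPKM, log axis) of 27 of the 28 type I interferon-induced genes and the 14 MHC class I and peptide-loading genes in 3 TC1 tumours and 3 MCA205 libraries, with 1 point for each library and genes ordered by log2 difference. Mx1 stands at 10.2 to 27.5 FPKM in the tumours and 0.609 to 0.859 in MCA205 cells, and Eif2ak2, last in the upper row, overlaps between the groups.

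Chemokines, the signals that draw leukocytes into tissue, went in both directions. Of 24 members 17 were called higher and 1 lower, with a median of 3.17, 11 were called higher at a minimum change of 2-fold, and 2 were lower without tumour 3. Ccl12, a chemokine for monocytes, stood at 93.8, 50.0 and 115 FPKM in the tumours and at 0, 0.263 and 0 in MCA205 cells (log2 difference 9.80 ± 0.86 SE, adjusted p = 0.000937). Cxcl9, which draws activated T cells, stood at 41.4, 54.7 and 85.8 FPKM against 0.106, 1.13 and 0.552 (6.76 ± 0.86 SE, adjusted p = 0.00252). Ccl2, another monocyte chemokine, was made by MCA205 cells too, at 184, 168 and 170 FPKM against 415, 348 and 466 in the tumours (1.27 ± 0.13 SE, adjusted p = 0.00124, or 0.0909 in the fit with 9 libraries). Cxcl1, a neutrophil chemokine, was lower in the tumours, at 11.7, 6.66 and 8.15 FPKM against 65.2, 61.4 and 60.9. Its log2 difference was −2.48 ± 0.20 (SE, adjusted p = 0.000685), and its adjusted p was 0.14 in the fit with 9 libraries. Each of the 4 genes had groups that did not overlap.

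Complement genes, whose proteins coat targets and call phagocytes, had 11 of 16 members called higher, against 19.3% of all genes tested. Their median was 2.89, and 7 were called at a minimum change of 2-fold. C1qa, a chain of the first component that macrophages make, stood at 306, 184 and 393 FPKM in the tumours and at 0, 2.32 and 0.804 in MCA205 cells (log2 difference 8.13 ± 1.07 SE, adjusted p = 0.00289). Cfp, properdin, stood at 51.2, 36.4 and 39.4 FPKM against 0.961, 1.72 and 0.999 (5.13 ± 0.33 SE, adjusted p = 0.000391). C3, the central component, was shared, at 26.5, 26.8 and 61.5 FPKM against 26.5, 27.8 and 25.3. Its values overlapped, tumour 3 lay above the rest, and the gene was not called (log2 difference 0.53, adjusted p = 0.27).

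The collagen matrix was richer in the tumours. Of 19 collagen genes 15 were called higher, 1 lower and 2 were held, with a median of 1.56, 6 were called higher at a minimum change of 2-fold, and 2 were lower without tumour 3. Col6a3, of the beaded filaments around cells, stood at 18.4, 30.1 and 36.4 FPKM in the tumours and at 0.967, 1.33 and 0.995 in MCA205 cells (log2 difference 4.76 ± 0.30 SE, adjusted p = 0.000391). Col5a3, a minor fibrillar collagen, stood at 33.3, 31.5 and 32.4 FPKM against 8.73, 7.98 and 8.18 (1.98 ± 0.07 SE, adjusted p = 0.000164). Col4a1, of basement membranes, was held, at 34.7, 47.3 and 55.2 FPKM against 33.9, 34.4 and 35.6 (0.40, adjusted p = 0.113). Col8a1, a short-chain collagen, was the member called lower, at 21.5, 26.4 and 19.8 FPKM against 46.4, 44.6 and 41.3 (−0.97 ± 0.13 SE, adjusted p = 0.0027, not called at a minimum change of 2-fold). Col6a3, Col5a3 and Col8a1 separated the groups without overlap.

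Matrix proteases and their inhibitors followed with 11 of 17 called higher and 2 lower, a median of 0.91, and 4 called higher at a minimum change of 2-fold. Without tumour 2, MCA205 library 1 or MCA205 library 3, 1 was called lower. Mmp9, a gelatinase, stood at 22.8, 21.5 and 58.8 FPKM in the tumours and at 2.87, 2.81 and 2.37 in MCA205 cells (log2 difference 3.70, adjusted p = 0.00217). Mmp12, the elastase of macrophages, stood at 11.8, 5.87 and 2.98 FPKM against 0, 0.0521 and 0 (8.53 ± 1.21 SE, adjusted p = 0.0037, or 0.0823 with limma-voom). Plau, the urokinase activator, stood at 35.9, 19.3 and 27.5 FPKM against 6.54, 6.07 and 5.79 (2.17, adjusted p = 0.00147). The 3 proteases were higher in every tumour, while tumour 3 was highest for Mmp9 and tumour 1 for the others. Adamts1, which cuts proteoglycans, was lower in every tumour, at 11.4, 14.5 and 18.6 FPKM against 30.5, 28.7 and 32.3 (−1.04 ± 0.18 SE, adjusted p = 0.00684), and was not called at a minimum change of 2-fold.

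Cholesterol synthesis genes were lower in the tumours as a whole list. Cells build sterols from acetyl-CoA through the mevalonate pathway, whose genes the factor encoded by Srebf2 drives when sterols are short. All 20 members were called lower in the tumours, with differences from −2.47 to −0.78 and a median of −1.33, and 20 were called under each alternative tried but a minimum change of 2-fold, which called 9. Their sum was 669, 666 and 847 FPKM in the tumours, 1937, 1814 and 1891 in MCA205 cells and 1179, 1306 and 1372 in cultured TC1 cells. Mvd, the decarboxylase of the mevalonate pathway, stood at 17.5, 20.1 and 28.1 FPKM in the tumours and at 115, 112 and 110 in MCA205 cells (log2 difference −2.38 ± 0.18 SE, adjusted p = 0.000617). Lss, the cyclase that makes lanosterol, stood at 6.07, 8.21 and 10.4 FPKM against 44.5, 39.6 and 43.3 (−2.47 ± 0.22 SE, adjusted p = 0.000993). For both the highest tumour was tumour 3 and lay far below the lowest MCA205 library.

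The regulators were lower as well. Srebf2 itself stood at 52.9, 54.6 and 57.1 FPKM in the tumours and at 146, 142 and 153 in MCA205 cells (log2 difference −1.38 ± 0.09 SE, adjusted p = 0.000446). Insig1, which holds the pathway's regulators in the endoplasmic reticulum when sterols abound, stood at 12.2, 14.1 and 23 FPKM against 73.7, 68.4 and 71.5 (−2.05 ± 0.23 SE, adjusted p = 0.00184). Neither gene overlapped between the groups. Fdft1, squalene synthase, had the smallest difference of the list, at 29.98, 28.6 and 34.5 FPKM against 54.7, 58.9 and 59.4 (−0.78 ± 0.10 SE, adjusted p = 0.00239). The sterol regulatory element, read as ATCAC, any base and CCAC and searched on both strands, was in the promoter windows of 0 of the 14 list genes with an entry and of 0.203% of the tested genes. With so rare a match, 0 of 14 cannot tell whether these promoters hold the element more or less often than others. 

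**Figure D5:**
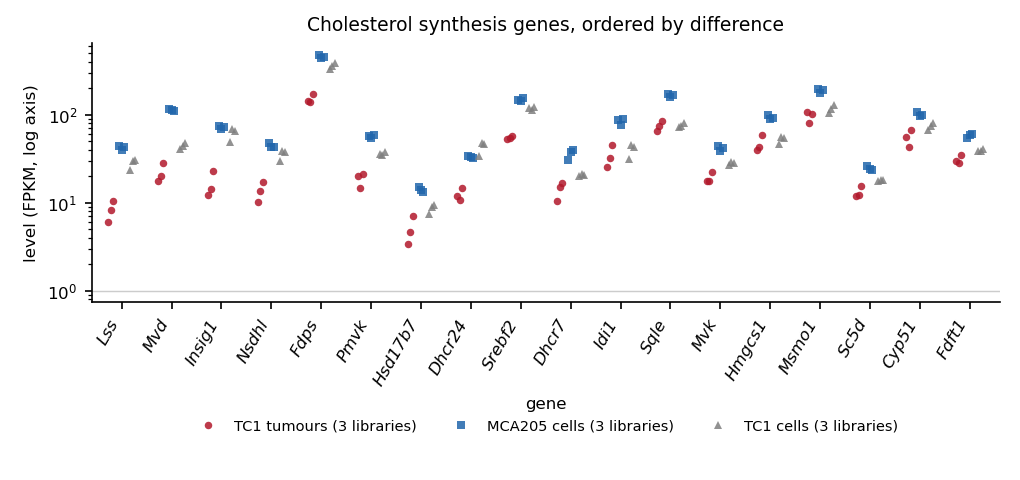
Levels (FPKM, log axis) of 18 of the 20 cholesterol synthesis genes in 3 TC1 tumours, 3 MCA205 libraries and 3 TC1 cell libraries, with 1 point for each library and genes ordered by log2 difference. Each gene drawn is lower in the tumours than in MCA205 cells, from Lss (6.07 to 10.4 against 39.6 to 44.5 FPKM) to Fdft1 (28.6 to 34.5 against 54.7 to 59.4).

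Cell cycle genes were lower by less. Of 22 G1/S genes, which license and copy DNA, 12 were called lower, 1 higher and 16 were held within 2-fold, with a median of −0.45. The 1 called higher was not without tumour 2, MCA205 library 2 or MCA205 library 3. Of 22 G2/M genes, which drive mitosis, 14 were called lower and 14 were held, with a median of −0.53, and 9 were called lower without MCA205 library 1 and 9 without MCA205 library 3. At a minimum change of 2-fold 2 G1/S genes and 0 G2/M genes were called lower. These 2 were Dnmt1 and Cdk2, both named in the title of the series. Dnmt1, the maintenance DNA methyltransferase, stood at 22.9, 32.6 and 26 FPKM in the tumours and at 123, 129 and 113 in MCA205 cells (log2 difference −2.21 ± 0.16 SE, adjusted p = 0.000557). Cdk2, the kinase of the G1/S transition, stood at 25.3, 22.9 and 23.1 FPKM against 78.6, 59.5 and 69.1 (−1.59 ± 0.13 SE, adjusted p = 0.000736). Both genes separated the groups completely.

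Other proliferation genes stood closer to the culture. Mcm2, a subunit of the replicative helicase, stood at 65.5, 70.2 and 57.4 FPKM in the tumours and at 113, 107 and 113 in MCA205 cells (log2 difference −0.78 ± 0.10 SE, adjusted p = 0.0027), and was not called at a minimum change of 2-fold. Pcna, the sliding clamp of DNA synthesis, stood at 341, 251 and 209 FPKM against 259, 241 and 254. Top2a, the topoisomerase of dividing cells, stood at 153, 162 and 127 FPKM against 145, 137 and 144. Pcna and Top2a overlapped between the groups and were held, with log2 differences of 0.11 and −0.10.

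Several single genes were lower by more than the cholesterol genes. Nqo1, the quinone reductase of the oxidant response, stood at 4.28, 4.0 and 5.6 FPKM in the tumours and at 76.0, 73.9 and 89.5 in MCA205 cells (log2 difference −4.11 ± 0.17 SE, adjusted p = 0.000164). Aldh3a1, an aldehyde dehydrogenase, stood at 1.77, 1.55 and 1.26 FPKM against 26.7, 28.1 and 24.1 (−4.12 ± 0.16 SE, adjusted p = 0.000164). Fgf21, a hormone made under metabolic stress, stood at 1.64, 0.767 and 1.47 FPKM against 12.8, 15.8 and 19.8 (−3.64 ± 0.36 SE, adjusted p = 0.00122). The tumours were below every MCA205 library for each gene. Il1a, the cytokine interleukin 1 alpha, differed by −3.73 (adjusted p = 0.0012) and was not called with MCA205 library 1 as the sole MCA205 library (adjusted p = 0.11). Reg3b, an intestinal lectin, had the largest fall, at 0, 0.197 and 0.0589 FPKM against 2.58, 224 and 136, where MCA205 libraries 2 and 3 carried the level. Its log2 difference was −10.53 ± 2.03 (SE, adjusted p = 0.0101), and the adjusted p was 0.609 with limma-voom and 0.0753 with MCA205 library 2 and tumour 3 left out together.

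Energy metabolism and stress genes varied among the tumours. Of 20 hypoxia and glycolysis genes 9 were held, 3 were called lower and 1 higher, with a median of −0.12. Of all genes tested 43.5% were held and 15.5% called lower, so these shares lay near the background. The count called higher was 4 without tumour 3 and 0 without tumour 1, tumour 2, MCA205 library 1 or MCA205 library 3, and the last also left 1 called lower. Ndrg1, a gene induced by low oxygen, stood at 170, 134 and 47.0 FPKM in the tumours and at 72.8, 69.9 and 74.2 in MCA205 cells, tumours 1 and 2 lying above the culture and tumour 3 below. It was not called (log2 difference 0.70, adjusted p = 0.251), and without tumour 3 its log2 difference was 1.06 (adjusted p = 0.00462). Ldha, lactate dehydrogenase, stood at 1470, 1124 and 846 FPKM against 1174, 1107 and 1156, in the same order of tumours, and was held (0.01). Of 22 oxidative phosphorylation genes 17 were held, 8 were called lower and 1 higher, with a median of −0.17, a replicate block left 4 lower and 0 higher, and without MCA205 library 1 or 3 there were 5 lower. Of 18 heat shock and immediate early genes 9 were called higher, 2 lower and 4 were held, with a median of 0.69, and 1 was lower without tumour 2 or MCA205 library 3. Jun, an immediate early factor, stood at 62.7, 61.8 and 46.5 FPKM against 27.7, 30.1 and 30.8 (0.95 ± 0.13 SE, adjusted p = 0.00347). Nr4a1, an immediate early nuclear receptor, was lower, at 13.0, 11.9 and 8.31 FPKM against 23.1, 23.6 and 25.0 (−1.11 ± 0.18 SE, adjusted p = 0.00594). Both genes had groups that did not overlap.

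Liver, intestine and epithelial genes were found in some libraries of both groups. The 12 liver genes summed to 30.9, 85.8 and 289.5 FPKM in the tumours and to 0.783, 83.6 and 40.5 in MCA205 cells, against 1462, 1636 and 902 in cultured TC1 cells. With edgeR 0 of 11 tested intestine genes of 12 were called, 3 were lower without MCA205 library 1, and the 12 summed to 2.63, 43.5 and 44.1 FPKM in the tumours and to 4.02, 264 and 76.1 in MCA205 cells. Tumour 1 and MCA205 library 1 were thus low for both, and MCA205 library 2 was high for intestine. Apoa4, an intestinal apolipoprotein, stood at 0, 0.603 and 1.73 FPKM in the tumours and at 0, 41.5 and 0 in MCA205 cells. Epithelial genes, which TC1 is commonly described as expressing, summed to 5.05, 69.8 and 62.9 FPKM in the tumours and to 63.1, 136 and 67.2 in MCA205 cells, and 0 of 12 tested members of 18 were called, with 1 lower without tumour 1 or tumour 2. Of the sum in MCA205 library 1, 45.6 FPKM was Scgb1a1, an airway secretory protein that is not listed for the tumours and was set to 0 there. Of the liver genes Trf, transferrin, was called (adjusted p = 0.0467). The call was lost with a replicate block (adjusted p = 0.0608), with library size as the only scaling (0.0523), with no filter (0.0712), at a minimum change of 2-fold (0.192), with MCA205 library 2 and tumour 3 left out together (0.176), without any 1 of the tumours (0.0717 to 0.111) and without MCA205 library 2 (0.0931) or 3 (0.109). Without tumour 1 there were 3 liver genes called. With a replicate block 6 liver genes were called higher and 3 intestine genes lower, among them Alb, the serum albumin (adjusted p = 0.0201), and Reg3g (0.00565). What these transcripts have to do with the genes called above was not tested, beyond the values given without MCA205 library 2.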

How the data were processed

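RNA-seq values of 3 wild-type TC1 tumours and 3 wild-type MCA205 libraries were used, with 3 wild-type TC1 cell libraries for reference. Tools named in the submitters' processing notes are FastQC, Trim Galore, Bowtie2 and featureCounts, and the build named is mm10; versions and roles are not given in the sources used here. The deposited tables list transcripts with estimated counts and FPKM, per the file headers. The FPKM of the authors are scaled to transcript length and library size, and their deposited estimated counts are whole numbers, so that rounding changed none. The columns labelled KO, 6 in each table, were not used.

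Transcripts were summed per gene and the tables joined by gene identifier, giving 33669 genes, 27327 of them in both tables, with a missing gene set to 0. Levels are transcript counts per kilobase, summed per gene, per unit of the TMM-scaled library size. A gene absent from a table cannot be told from one with no reads. Tests were edgeR's quasi-likelihood test with TMM factors and the default filter (18669 genes), adjusted by Benjamini-Hochberg and called under 0.05. The fit was tested on simulated counts of 17977 genes, where 45% of the 2-fold and 68% of the 4-fold changes were found, and 5.04% of its calls were unchanged genes. No 2 libraries of a group were alike within sampling noise (chi-square ratios of 17.28 and above). Same-numbered tumour and MCA205 libraries deviated together, with correlations of 0.432, 0.149 and 0.132. Of the 6 differently numbered pairs, tumour 3 with MCA205 library 2 reached 0.354 and tumour 2 with library 3 0.103, and the others were −0.406 to −0.165. A fit with a replicate block was run, although no label states a pairing.

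The members and the 36 gene lists (576 genes looked up, 575 with a row) were chosen with earlier results of these data known. The rule for named genes took the 10 called genes furthest apart in each direction, given groups without overlap and a mean of 5 FPKM or more in the higher group. It also took the most abundant held and lacked genes, and up to 4 members of each list by p. Of these a selection is printed, and some items are not reported here. Further list members, 75 in number with Nat10 among them, were chosen after their values were seen. So were the genes that separate the lines, with the liver and intestine genes among them. Alternatives were RLE, upper-quartile and library-size scaling, no filter, a filter of 1 CPM, DESeq2, limma-voom, a minimum change of 2-fold, a replicate block, a fit with 9 libraries, genes in both tables, other limits for presence, and each library left out. Fits ran in R 4.3.3 with DESeq2 1.42.0, limma 3.58.1 and edgeR 4.0.16, and other steps in matplotlib 3.10.9, pandas 2.3.3, numpy 2.4.6 and Python 3.11.15.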

Additional observations from a re-analysis of the deposited data

How the results depend on the processing

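Libraries hold 52430163 to 78501790 estimated counts, and what depth or the spread between libraries limits was not tested. At a minimum change of 2-fold, 960 genes were higher in the tumours and 219 lower. With MCA205 library 2 and tumour 3 left out together the counts were 1904 and 1308. With MCA205 library 1 as the sole MCA205 library the counts were 2134 and 1324. The spread of that fit came from the tumours and from the TC1 cell libraries, which it also held. Both alternatives were chosen after seeing the data. Leaving out each library in turn gave 2020 to 3836 higher, 1500 to 3366 lower, 7055 to 8659 held within 2-fold, 11447 to 11569 shared, 83 to 157 lacked by MCA205 cells and 2 to 10 lacked by the tumours. Genes lacked by MCA205 cells numbered 377 with lacking set under 0.5 FPKM, and 164 and 394 under the added alternatives, in that order. Genes lacked by the tumours numbered 9 with limits of 0.5 and 0.05 FPKM, 4 with 2 and 0.2, 47 with lacking set under 0.5, 1 without TMM factors, and 9 and 10 under the added alternatives. The cause of these shifts was not tested.

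The replicate block gave 2594 genes higher, 1954 lower and 7597 held, and the calls it changed among the genes named are given beside them.

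Of 252 genes followed, of which 170 were called, the call was lost for 58 at a minimum change of 2-fold, 44 with MCA205 library 1 alone, 28 with both libraries out, 24 without MCA205 library 3 and 13 with the block, and for 0 with RLE or upper-quartile scaling or DESeq2. Of the genes followed, 37 had a value of the other sign under some alternative, and 0 of these were called with all libraries. For 3 of them, genes of muscle and skin, the value of the other sign was itself called: without MCA205 library 2 Atp2a1 stood at 3.05 and Krt14 at 11.67, with both libraries out Krt14 stood at 11.70, and with MCA205 library 1 alone Krt14 stood at 11.68 and Ckm at 11.01. Their signs also turned, without a call, with limma-voom (Atp2a1 1.33, Ckm 2.84, Krt14 5.11), with the replicate block (1.55, 1.75 and 4.22), for Ckm without MCA205 library 2 (4.40), and for Atp2a1 (3.17) and Ckm (4.82) with both libraries out and Atp2a1 (4.89) with MCA205 library 1 alone. Without MCA205 library 1, Atp2a1 stood at −1.93 and Krt14 at −1.51. The 2-fold minimum was run on all genes tested, but the number held within 2-fold was not counted under it.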
